A study of Homo sapiens with 16 samples.

Results

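The iron handling genes described here, 10 in all, were followed through lung metastases of human melanoma, grown in mice on 2 diets with or without inhibitors. They were chosen by symbol: TFRC, STEAP3, SLC11A2, FTH1, FTL, NCOA4, SLC40A1, IREB2, ACO1 and HMOX1. All 10 of these genes were among the 26475 in the table, and all 10 were among the 16012 that passed the low-count filter, SLC40A1 only through its low counts in the groups with inhibitors. TFRC was picked because its response to the inhibitors differed between the diets, so its values are given as a description, with no p-value. SLC40A1 is described likewise, since a gene kept by the filter through the groups where it is higher had to differ. The other 8 genes were tested.

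The tumour cells were A375 MA2-Luc, an established human melanoma line, 250000 of them injected retro-orbitally into NSG mice, a strain that lacks T, B and NK cells but keeps myeloid cells. Poly-A RNA was sequenced from 16 samples labelled as lung metastases. The 4 groups of 4 were high fat diet with no treatment, high fat diet with inhibitors, ketogenic diet with no treatment and ketogenic diet with inhibitors. The inhibitors were directed at BRAF kinase and at MEK 1/2 and were given by oral gavage 3 times a week for 5 weeks. The labels name neither the drugs nor their doses, and give no age of the mice, no composition of the diets and no vehicle for the untreated groups, so gavage and inhibitor cannot be told apart. A cultured line is mentioned in the design text too. No label says that each replicate came from its own mouse, so p-values measure only the spread between these samples, which may be technical.

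Cells take up iron bound to transferrin through the transferrin receptor TFRC, which is carried into endosomes. There STEAP3 reduces the iron and SLC11A2 (DMT1) moves it into the cytosol. Surplus iron is stored in ferritin, a shell of FTH1 and FTL chains that NCOA4 delivers to lysosomes for breakdown, and it leaves the cell through ferroportin, SLC40A1. The RNA-binding proteins IRP1 (encoded by ACO1) and IRP2 (encoded by IREB2) bind hairpins called iron-responsive elements (IREs) when iron is scarce. Binding in the 3′ UTR protects TFRC mRNA from decay, while binding in the 5′ UTR blocks translation of ferritin and ferroportin and need not alter their mRNA. HMOX1 breaks heme down and frees its iron.

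The hairpins are shown because the known control of these genes runs through them, and because TFRC carries them at the other end of the message from ferritin. A search of the sense strand of GENCODE 29 transcripts (build GRCh38) for a bulged C, a stem of 5 pairs and the loop CAGTGN, with at least 3 of 5 pairs below the bulge, matched 57 of 19669 protein-coding genes, or 0.290%. Of the 10 genes, 4 had a match and 6 had none in these transcripts. Capitals mark the 6-base loop, and each sequence runs 5′ to 3′ in the mRNA.
TFRC, 3′ UTR, chr3:196050980-196051006, minus strand: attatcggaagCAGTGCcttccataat
TFRC, 3′ UTR, chr3:196050576-196050602, minus strand: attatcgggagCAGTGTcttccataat
TFRC, 3′ UTR, chr3:196050511-196050537, minus strand: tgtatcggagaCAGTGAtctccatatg
TFRC, 3′ UTR, chr3:196050464-196050490, minus strand: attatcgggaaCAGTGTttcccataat
FTH1, 5′ UTR, chr11:61967575-61967601, minus strand: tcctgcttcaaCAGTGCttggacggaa
FTL, 5′ UTR, chr19:48965336-48965362, plus strand: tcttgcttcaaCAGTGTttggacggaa
SLC40A1, 5′ UTR, chr2:189580662-189580688, minus strand: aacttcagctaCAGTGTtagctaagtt
TFRC had 4 matches, all in the 3′ UTR, and the other 3 genes had 1 each, in the 5′ UTR. The TFRC sites were in 3 of its 4 coding transcripts, the SLC40A1 site in 1 of 5. A match describes these letters only, and binding was not measured. Hairpins that depart from the pattern, as by a mismatch in the stem of 5 pairs, are missed, so no match does not mean no IRE.

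Levels below are CPM, each count set against its library's TMM-scaled total. Each library held 37.1 to 77.3 M (mega) estimated counts, of which ribosomal RNA took 4.10 to 50.01%. That share was 21.7 to 50.01% in untreated high fat libraries, 15.01 to 19.97% with inhibitors, 15.2 to 33.7% in untreated ketogenic libraries and 4.10 to 8.37% with inhibitors, so it moved with the groups. It was above 30% in 3 libraries, untreated high fat replicates 2 and 3 and untreated ketogenic replicate 2. All 15 melanoma markers passed the filter and summed to 5310 to 6918 CPM in every library. VIM led that sum with a mean of 2829 CPM, while MLANA and TYRP1 were near the floor at means of 0.222 and 0.134 CPM. With inhibitors on the high fat diet edgeR called 2 of the 15 lower and 0 higher, beside 21.7% and 20.6% of all genes. In these bulk samples, fewer cells of a type and less RNA per cell cannot be told apart. Host cells in the lungs were mouse cells, while the counts are of human genes. Whether counts of the marker lists below came from tumour cells or from mouse reads was not tested.

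TFRC spans chr3:196027183-196082189 on the minus strand. In untreated tumours on the high fat diet its level was 16.7, 17.3, 18.4 and 20.4 CPM in replicates 1 to 4, a mean of 18.2 ± 1.62 (SD, n = 4). With inhibitors on the same diet it was 208, 240, 194 and 235 CPM, a mean of 219 ± 22.1 (SD, n = 4). The 2 groups were far apart and each was tight, since the highest level was 1.22 and 1.24 times the lowest within them. The log2 fold change was 3.59 (SE 0.43, 95% interval 2.67 to 4.51), a 12.1-fold higher level with inhibitors.

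Untreated tumours on the ketogenic diet had more TFRC than those on the high fat diet. Their levels were 118, 184, 76.2 and 36.9 CPM, a mean of 104 ± 62.8 (SD, n = 4), and all 4 lay above every untreated high fat library. With inhibitors the levels were 67.9, 213, 198 and 131 CPM, a mean of 153 ± 66.8 (SD, n = 4). The ketogenic groups overlapped, and each spread far more widely than a high fat group. The diet difference without inhibitors was 2.52 on the log2 scale (SE 0.41, 95% interval 1.63 to 3.40), a 5.72-fold higher level.

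The inhibitor difference on the ketogenic diet was 0.55 for TFRC (log2, SE 0.39, 95% interval -0.28 to 1.38). The diet difference with inhibitors was -0.52 (SE 0.39, 95% interval -1.35 to 0.31), and it was -0.28 without ketogenic replicate 1 with inhibitors, -0.35 with library size alone as the scaling, -0.22 in limma voom and -0.014 with the ribosomal share as a covariate. Subtracting the high fat from the ketogenic inhibitor effect gave -3.04 (SE 0.56, 95% interval -4.24 to -1.84), the contrast TFRC was chosen on. In order of mean level, high fat with inhibitors stood first, then ketogenic with inhibitors, ketogenic untreated and high fat untreated, and of these neighbours only the last pair did not overlap.

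**Figure D1:**
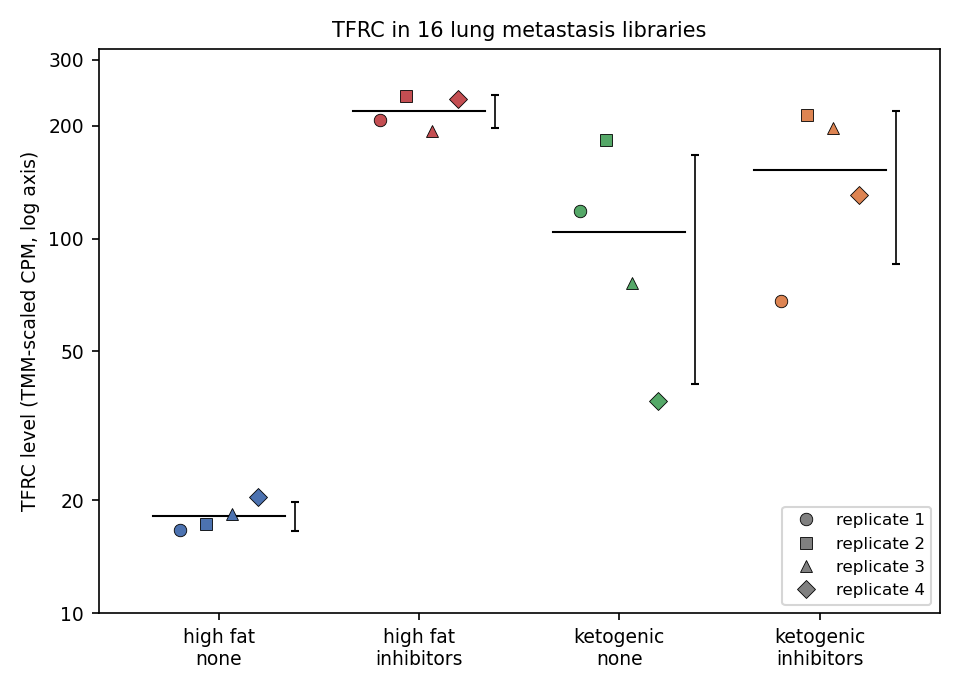
TFRC level in each of the 16 libraries (TMM-scaled CPM, log axis), with 4 replicates per group as points, the mean as a horizontal line and the SD as a bar beside it. Untreated high fat libraries lie between 16.7 and 20.4 CPM, below all other libraries, while ketogenic libraries spread from 36.9 to 213 CPM with or without inhibitors.

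Single libraries bore on the ketogenic values of TFRC. The inhibitor difference on that diet was 0.98 without untreated ketogenic replicate 2, the library with the most TFRC in its group, and 0.27 without replicate 4, the one with the least. The difference of the inhibitor effects was -2.61 and -3.32 in the same 2 cases. In the untreated ketogenic group TFRC and ribosomal RNA had the same order, with ribosomal shares of 25.9, 33.7, 20.02 and 15.2% in replicates 1 to 4. They had the same order in the high fat group with inhibitors too, at 16.1, 19.97, 15.01 and 18.2%, and not in the other 2 groups. With the ribosomal share as a covariate the ketogenic inhibitor difference was 1.27 (SE 0.80), and the difference of the inhibitor effects was -2.60 (SE 0.72). Without the 3 libraries above 30% ribosomal RNA that difference was -2.57.

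Red cell precursors, which here would be mouse cells, also hold much TFRC. The 15 erythroid markers in the table summed to 0.19 to 0.53 CPM in untreated high fat tumours, 0.27 to 1.25 CPM with inhibitors, 0.18 to 0.72 CPM in untreated ketogenic tumours and 0.22 to 0.67 CPM with inhibitors. HBG1, GYPB and EPB42 were at 0 in every library, and only HBA1 passed the filter. On the high fat diet HBA1 had 2, 0, 0 and 0 counts untreated and 56, 9, 4 and 0 with inhibitors. Of the other lists, 2 had sums that were higher with inhibitors on the high fat diet, as TFRC was, and 1 had a lower sum. The 10 endothelial markers, 6 of them tested, summed to 32.9 to 63.9 CPM untreated and 89.5 to 107 CPM with inhibitors, and 45.2 to 65.1 and 47.2 to 61.8 CPM on the ketogenic diet. The 12 hepatocyte and plasma markers, 7 of them tested, summed to 14.3 to 22.7 and 46.0 to 84.8 CPM on the high fat diet, and 22.1 to 31.4 and 34.6 to 98.7 CPM on the ketogenic diet. KDR led the first sum where it was high, at 15.4 to 34.4 CPM untreated and 70.3 to 81.3 CPM with inhibitors on the high fat diet. TTR led the second where it was high, at 0.927 to 2.01 and 24.0 to 57.5 CPM. FLT1 (log2 0.05) and TF (-0.18) were not called in that comparison. No marker of either list was at 0 in all libraries, but CDH5 had 6 counts over all libraries together, EMCN 7 and HP 2. The 11 fibroblast markers, 9 of them tested and none at 0 in all libraries, summed on the high fat diet to 71.3 to 98.5 CPM untreated and 43.3 to 70.1 CPM with inhibitors, and to 51.2 to 81.6 and 44.3 to 70.6 CPM on the ketogenic diet. FBLN1 led that sum. Their part in the TFRC result was not tested.

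STEAP3, the endosomal ferrireductase (chr2:119223831-119265652, plus strand), fell on the ketogenic diet in untreated tumours, where TFRC was higher. Untreated high fat tumours had 11.1, 11.5, 11.4 and 12.7 CPM, and untreated ketogenic tumours had 7.83, 9.21, 8.32 and 8.03 CPM. The groups did not overlap, and the means were 11.7 ± 0.709 and 8.35 ± 0.612 CPM (SD, n = 4). STEAP3 fell by 0.49 on the log2 scale (SE 0.11, adjusted p = 0.0106, edgeR's quasi-likelihood test with Benjamini-Hochberg adjustment). It was the only one of the 8 tested genes called by edgeR for diet in untreated tumours, beside 13.5% of all genes (5.51% lower). It was also the only one of the 8 whose groups did not overlap, beside 25.5% of all genes.

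With inhibitors STEAP3 was at 11.2, 10.3, 10.2 and 11.3 CPM on the high fat diet and at 8.53, 7.31, 8.74 and 6.89 CPM on the ketogenic diet. These groups did not overlap either, but the log2 difference of -0.45 (SE 0.11) did not pass in edgeR (adjusted p = 0.110), where 0.169% of all genes were called. The untreated diet difference of STEAP3 kept its call when each of the 16 libraries was left out in turn (adjusted p up to 0.0425). It lost the call with library size alone as the scaling (-0.32, adjusted p = 0.289), which moved the median of all genes in that comparison by 0.17. It also lost it without the 3 libraries above 30% ribosomal RNA (-0.58, adjusted p = 0.108), where 0 of all genes were called. STEAP3-AS1, on the opposite strand, held 0.936% as many counts as STEAP3, and the strand setting of the counting is not given.

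SLC11A2, the endosomal iron transporter, stayed between 14.9 and 21.7 CPM in all 16 libraries. Its means on the high fat diet were 18.1 ± 1.35 CPM untreated and 17.2 ± 1.63 CPM with inhibitors, and those on the ketogenic diet were 17.1 ± 1.89 and 17.998 ± 3.05 CPM (SD, n = 4). None of its differences passed in edgeR, DESeq2 or limma voom, and the 95% interval of the high fat inhibitor difference was -0.33 to 0.19 (log2). No match to the IRE search was found in its transcripts, although SLC11A2 is in the list of iron sensing and IRE-bearing transcripts used below. The search misses hairpins that depart from its pattern, so this does not show that SLC11A2 lacks an IRE.

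HMOX1, the heme oxygenase, was the only one of the 8 tested genes called by edgeR for inhibitors on the high fat diet (chr22:35380361-35394214, plus strand). Untreated tumours had 5.14, 4.70, 5.34 and 4.58 CPM, and tumours with inhibitors had 11.3, 12.1, 10.8 and 14.2 CPM. The groups did not overlap, and HMOX1 rose 2.45-fold, by 1.29 on the log2 scale (SE 0.22, adjusted p = 0.00031 in edgeR). Of all genes 42.3% were called in this comparison, 20.6% as higher, so 1 of 8 is a smaller share than the background. Leaving out single libraries gave 1.205 to 1.34 for HMOX1, with adjusted p up to 0.00164.

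HMOX1 on the ketogenic diet was at 7.83, 8.48, 5.55 and 4.49 CPM untreated and at 5.55, 8.16, 7.36 and 11.7 CPM with inhibitors. These groups overlapped, and the log2 difference was 0.31 (SE 0.21, adjusted p = 0.463). It was 0.088 without ketogenic replicate 4 with inhibitors, 0.17 without untreated ketogenic replicate 4, 0.60 with library size alone and 0.97 with the ribosomal covariate, none of them called. The diet difference was 0.42 without inhibitors (SE 0.22, adjusted p = 0.200, and 0.0478 in limma voom) and -0.56 with them (SE 0.21, adjusted p = 0.279). The latter was -0.079 with the ribosomal covariate, and it was called by limma voom (-0.67, adjusted p = 0.0152). It was also called without the least like library of each group (-0.82, adjusted p = 0.0495), a set chosen after seeing the data. That set leaves out ketogenic replicate 4 with inhibitors, the highest of its group. No single library left out gave a call (adjusted p 0.0953 or more). By mean level the high fat group with inhibitors had the highest HMOX1, as it had for TFRC.

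For HMOX1 the inhibitor effect on the ketogenic diet minus that on the high fat diet was -0.98 (log2, SE 0.30, 95% interval -1.62 to -0.34, adjusted p = 0.0522 in edgeR). This just missed the threshold that 9.02% of all genes passed. Of the 16 cases of leaving out a library, 2 gave a call: without untreated ketogenic replicate 4 (-1.13, adjusted p = 0.0214) and without ketogenic replicate 4 with inhibitors (-1.20, adjusted p = 0.0107). In the other cases the difference was not called, with adjusted p up to 0.124. DESeq2 gave an adjusted p of 0.0190 and limma voom 0.0016, while the ribosomal covariate gave a difference of -0.62. Over the alternative settings the adjusted p was up to 0.316. Macrophages, which here would be mouse cells, also make HMOX1 and SLC40A1. The 19 macrophage and neutrophil markers, 8 of them tested and none at 0 in all libraries, summed to 49.4 to 63.8 CPM in untreated high fat tumours and 32.5 to 52.9 CPM with inhibitors, and to 39.3 to 74.0 and 37.4 to 64.7 CPM on the ketogenic diet. CD68 made up most of each sum, and CD163 had at most 13 counts in a library. Their part in the HMOX1 and SLC40A1 values was not tested.

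Neither ferritin gene passed in edgeR in any comparison. FTH1, the heavy chain with ferroxidase activity (chr11:61959718-61967660, minus strand), had 600, 548, 559 and 774 CPM in untreated high fat tumours and 758, 738, 774 and 804 CPM with inhibitors. Its means on the ketogenic diet were 670 ± 48.2 CPM untreated and 814 ± 199 CPM with inhibitors (SD, n = 4). The groups overlapped because untreated high fat replicate 4 was as high as the treated libraries. The inhibitor difference of FTH1 was 0.31 on the high fat diet (log2, SE 0.15, adjusted p = 0.0987) and 0.28 on the ketogenic diet (SE 0.15, adjusted p = 0.323). Without that replicate the high fat value was 0.43 and passed (adjusted p = 0.0239), as it did without ketogenic replicate 4 with inhibitors (0.31, adjusted p = 0.0304). These were 2 of 16 cases, and in the others it was not called (adjusted p up to 0.225). The high fat difference of FTH1 was also called by limma voom (0.44, adjusted p = 0.000129), with library size alone (0.56, adjusted p = 0.0253) and with only the libraries compared (0.32, adjusted p = 0.0413). It was called without the least like libraries too (0.44, adjusted p = 0.00303), a set chosen after seeing the data that leaves out untreated high fat replicate 4. Voom called its diet difference without inhibitors as well (0.23, adjusted p = 0.0300).

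FTL, the light chain (chr19:48965301-48966878, plus strand), had means of 672 ± 127 CPM untreated and 612 ± 44.3 CPM with inhibitors on the high fat diet. The ketogenic means were 626 ± 67.0 and 676 ± 131 CPM (SD, n = 4). None of its 5 differences passed in edgeR, DESeq2 or voom, with edgeR log2 values from -0.13 to 0.25. Processed pseudogenes can take ferritin reads: GENCODE lists 25 for FTH1 and 16 for FTL, but FTH1P3, the most counted of the 3 in the table, held 0.0291% as many counts as FTH1. BEST1, on the strand opposite FTH1, held 1.16%.

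NCOA4, the receptor that takes ferritin to lysosomes, stayed between 103 and 144 CPM in all libraries. With inhibitors it was at 134, 129, 136 and 135 CPM on the high fat diet and 119, 127, 123 and 103 CPM on the ketogenic diet. These groups did not overlap, but the log2 difference of -0.18 (SE 0.08) did not pass (adjusted p = 0.396). Voom called NCOA4 lower for diet without inhibitors (-0.17, adjusted p = 0.0278), which edgeR did not. STEAP3 and NCOA4 were the 2 of 8 genes without overlap in that comparison, beside 7.14% of all genes.

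SLC40A1, the iron exporter (chr2:189560579-189583758, minus strand), was barely detected. Its counts were 6, 6, 0 and 0 in untreated high fat libraries and 8, 8, 16 and 12 with inhibitors. On the ketogenic diet they were 3, 3, 1 and 1 untreated and 12, 21, 8 and 6 with inhibitors. Within each diet every library with inhibitors was above every untreated one, at 0.135 to 0.255 CPM against 0 to 0.130 CPM on the high fat diet and at 0.104 to 0.361 CPM against 0.0195 to 0.0464 CPM on the ketogenic diet. SLC40A1 was kept by the filter through the groups with inhibitors, so no test of these differences is given.

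Neither gene of the IRE-binding proteins passed in edgeR with all libraries in any comparison. IREB2, which encodes IRP2, had 59.0, 66.1, 62.9 and 68.0 CPM in untreated high fat tumours and 80.1, 75.5, 73.2 and 81.0 CPM with inhibitors. The groups did not overlap, with a log2 difference of 0.27 (SE 0.12, adjusted p = 0.0754). The IREB2 groups of the ketogenic diet overlapped, at 55.9 to 72.2 CPM untreated and 58.6 to 88.4 CPM with inhibitors (log2 difference 0.19, adjusted p = 0.418). Leaving out ketogenic replicate 1 with inhibitors, which is in neither high fat group but shares the estimate of the spread, brought the high fat difference of IREB2 to an adjusted p of 0.0397. That difference was also called by voom (0.28, adjusted p = 0.0046), with library size alone (0.55, adjusted p = 0.0134) and with only the libraries compared (0.29, adjusted p = 0.00833). Voom called the ketogenic difference of IREB2 too (0.35, adjusted p = 0.0183).

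ACO1, which encodes IRP1, was lower in every library with inhibitors on the ketogenic diet. It was at 43.3, 46.8, 43.0 and 44.9 CPM untreated and at 37.4, 42.1, 36.9 and 32.9 CPM with inhibitors. The groups did not overlap, but the log2 difference of -0.25 (SE 0.11) did not pass (adjusted p = 0.209). On the high fat diet the ACO1 difference was -0.14 (SE 0.10, adjusted p = 0.291), with overlapping groups, and it was called by voom (-0.23, adjusted p = 0.0148). It was also called without the least like libraries (-0.28, adjusted p = 0.0228), a set chosen after seeing the data. That set leaves out the lowest untreated and the highest treated library of the high fat diet. No single library left out gave a call (adjusted p 0.123 or more).

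Counted over the 8 tested genes, groups did not overlap for 2 in the high fat inhibitor comparison (HMOX1 and IREB2), beside 44.7% of all genes. They did not overlap for 1 in the ketogenic one (ACO1), beside 10.3% of all genes. For inhibitors on the high fat diet voom called 4 of 8 (ACO1, FTH1, HMOX1 and IREB2) beside 62.1% of all genes. DESeq2 called 1 (HMOX1) beside 45.6%. For diet without inhibitors voom called 4 (FTH1, HMOX1, NCOA4 and STEAP3) beside 39.9% of all genes. DESeq2 called 1 (STEAP3) beside 19.7%. For inhibitors on the ketogenic diet 0 of 8 were called by edgeR and 0 by DESeq2, where 1.74% and 5.45% of all genes were. There 1 of 8 (ACO1) had an unadjusted p under 0.05 beside 18.7% of all genes, and voom called 1 (IREB2) beside 9.09%. For diet with inhibitors edgeR called 0 of 8 beside 0.169% of all genes, and 2 (HMOX1 and STEAP3) had an unadjusted p under 0.05 beside 12.7%. DESeq2 called 1 of them (STEAP3) beside 2.15% of all genes, and voom both beside 6.6%. For the difference of the inhibitor effects edgeR called 0 of 8 beside 9.02%, and 1 (HMOX1) had an unadjusted p under 0.05 beside 28.5%. It was the 1 call of DESeq2 and of voom there, beside 15.5% and 32.5% of all genes.

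The median log2 difference of the 8 genes was -0.027 for inhibitors on the high fat diet, where the median of all genes was -0.029. On the ketogenic diet it was 0.092 beside 0.012. For diet it was -0.023 beside -0.023 without inhibitors and -0.043 beside 0.023 with them.

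**Figure D2:**
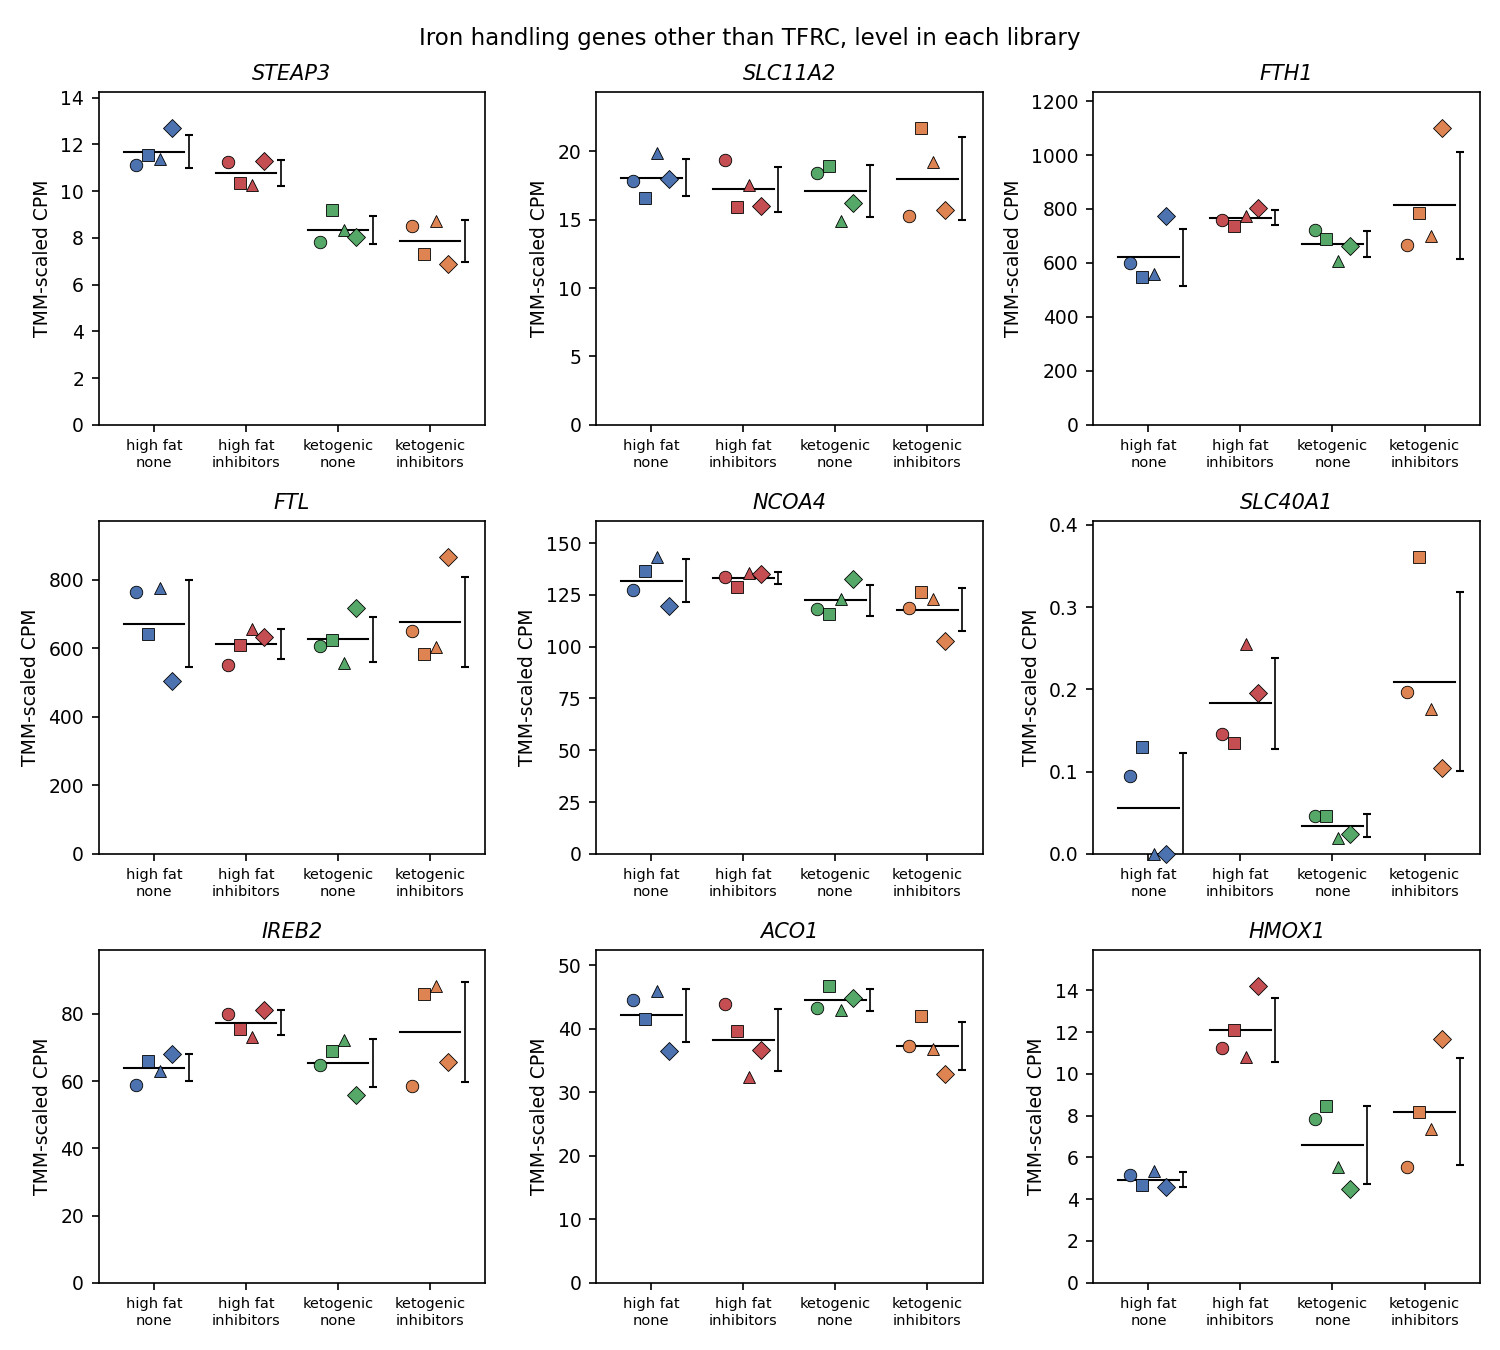
Level of the 9 other genes in each library (TMM-scaled CPM, axes starting at 0), drawn with the same symbols as the TFRC plot: points for replicates 1 to 4, a line for the mean and a bar for the SD. HMOX1 is highest in the high fat group with inhibitors (10.8 to 14.2 CPM), STEAP3 is lower in both ketogenic groups, and SLC40A1 is at most 0.361 CPM.

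**Figure D3:**
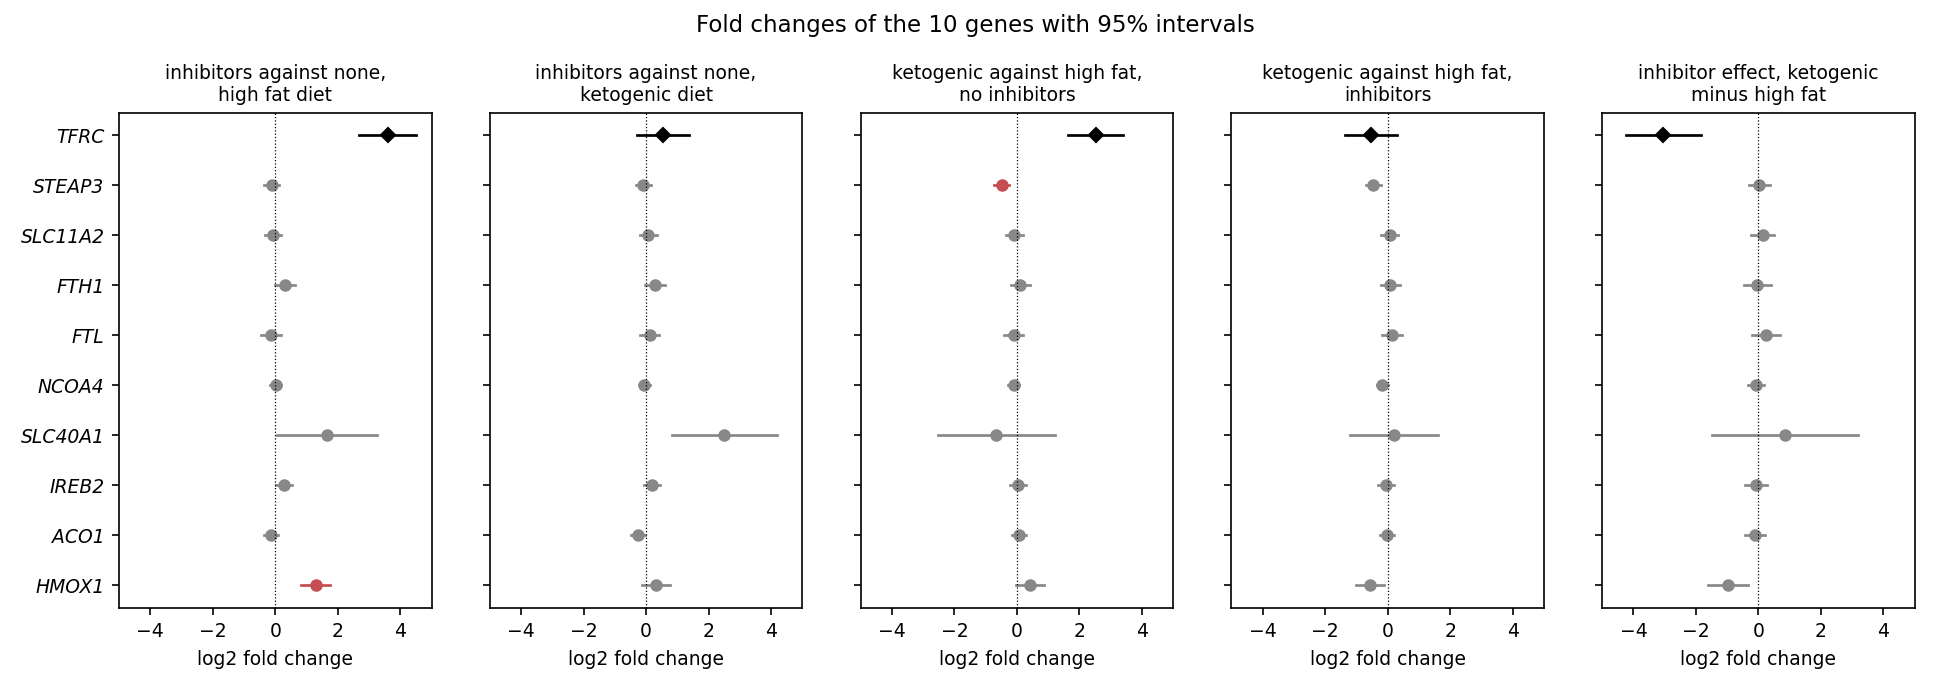
Log2 fold changes of the 10 genes (points) with 95% intervals (lines) in the 5 comparisons, 4 libraries per group. Red marks the calls of HMOX1 (1.29) and STEAP3 (-0.49), grey a gene not called, with SLC40A1 among them for description only, and black diamonds TFRC, which was not tested.

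Genes whose levels ran most like TFRC over the 16 libraries were found by Pearson's r of log2(CPM + 1) among 10966 genes with a mean of at least 5 CPM. The 5 highest were DLD (0.98), a subunit of mitochondrial dehydrogenase complexes, HN1L (0.98), CAP1 (0.98), an actin regulator, CDC6 (0.98), which licenses DNA replication, and MAPRE1 (0.98), a microtubule end-binding protein. None of the 5 is in the iron lists. The libraries share their group means, so r was also taken over deviations from the group means, where it was 0.90 for DLD, 0.93 for HN1L, 0.92 for CAP1, 0.89 for CDC6 and 0.88 for MAPRE1. The 5 genes were picked on r over the same 16 libraries, so the values over deviations are a description and no separate check. Ribosomal share, depth and scaling are common to both axes of these values.

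Of these 5 genes CDC6 differed most between the groups. CDC6 had means of 15.4, 64.1, 43.8 and 51.7 CPM in the untreated and treated high fat and the untreated and treated ketogenic groups, while DLD had 67.1, 107, 89.3 and 96.9 CPM. The 3 lowest r belonged to DRAM2 (-0.98), DLG4 (-0.98) and ZNF862 (-0.98), and DLG4, a synaptic scaffold protein, had means of 64.9, 22.7, 37.9 and 29.9 CPM in the same order of groups.

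Of the iron genes themselves HMOX1 ran most like TFRC, with r of 0.85 over the 16 libraries and 0.70 over deviations from the group means. By the first value HMOX1 ranked 709 among the 10966 genes. IREB2, at rank 2064, followed with 0.70 and 0.75, and FTH1 with 0.59 and 0.20. SLC11A2 had 0.09 over all libraries but 0.62 over the deviations. The values over all libraries were -0.22 for NCOA4, -0.25 for FTL, -0.30 for ACO1 and -0.39 for STEAP3, and SLC40A1 was too low to be included. None of the 9 genes compared had another of the 10 among its 3 most similar genes.

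**Figure D4:**
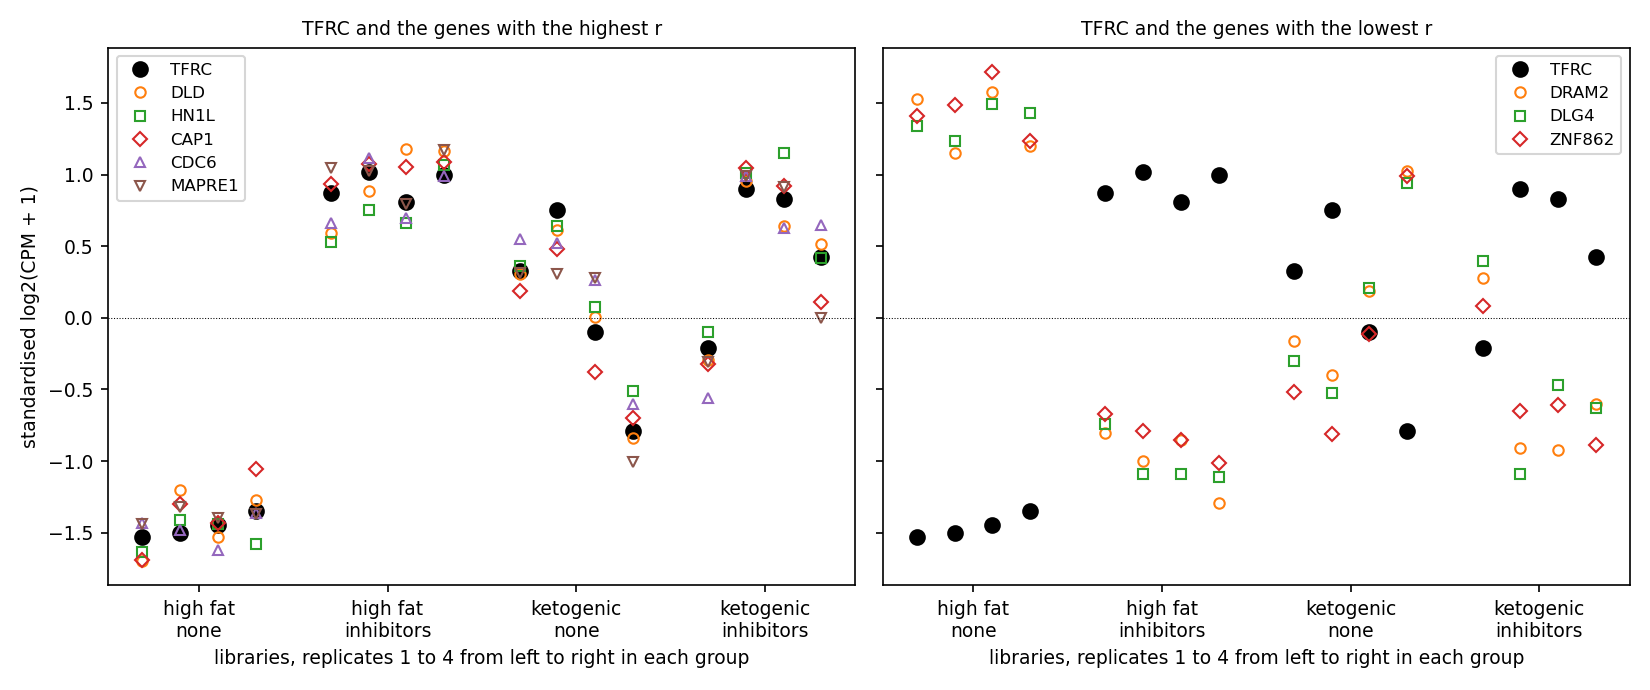
Standardised log2(CPM + 1) of TFRC (filled circles) in each library beside the 5 genes with the highest r (left) and the 3 with the lowest (right), replicates 1 to 4 from left to right in each group. Ketogenic untreated replicate 4 and ketogenic replicate 1 with inhibitors are low in TFRC and in the 5 genes, and high in the other 3.

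Around the 10 genes, 8 lists of iron and heme genes held 93 further tested genes. With inhibitors on the high fat diet 42 of the 93 changed, 31 higher and 11 lower, which is 45.2% beside 42.3% of all genes (20.6% higher and 21.7% lower). The median log2 difference of the 93 was 0.21, and that of all genes -0.03. With library size alone, which shifted the median of all genes by 0.28, the split was 48 higher and 3 lower. Without the 3 libraries above 30% ribosomal RNA 21 were called, 16 higher and 5 lower, and leaving out single libraries gave 32 to 49.

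In iron uptake and reduction 3 of 10 genes rose and 3 fell with inhibitors on the high fat diet. The metal importers SLC39A14 and SLC39A8 rose by 0.61 (SE 0.10, adjusted p = 0.000255) and 0.84 (SE 0.17, adjusted p = 0.000972), and STEAP1, a relative of STEAP3, by 1.37 (SE 0.34, adjusted p = 0.00448). The 3 lower calls were lost when untreated high fat replicate 3 or high fat replicate 2 or 4 with inhibitors was left out, which gave 0 lower each time. Among storage and chaperone genes 1 of 4 rose and 2 fell. PCBP1, which loads iron into ferritin, rose by 0.47 (SE 0.09, adjusted p = 0.000757), and its relative PCBP2 fell by 0.52 (SE 0.11, adjusted p = 0.00135). PROM2, linked to export of ferritin, fell by 1.96 (SE 0.42, adjusted p = 0.00181) from a mean of 0.934 CPM. HAMP, the hormone that removes ferroportin, had at most 1 count in a library.

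Of the 5 other genes of iron sensing and IRE-bearing transcripts only FBXL5 was called, an iron-sensing ligase that degrades IRP2. FBXL5 fell by 0.45 (SE 0.09, adjusted p = 0.000973), from 55.2 to 40.3 CPM. In heme synthesis 3 of 13 rose and 0 fell, led by UROD (0.64, SE 0.12, adjusted p = 0.000676). Only 1 of 13 was left when untreated high fat replicate 1 or 3, or high fat replicate 2 or 4 with inhibitors, was left out. Of the genes for heme uptake, export and breakdown 3 of 10 rose and 2 fell: the heme exporter FLVCR1 rose by 0.73 (SE 0.16), while the heme transporter SLC48A1 and the scavenger receptor LRP1 fell by 0.53 (SE 0.14) and 0.79 (SE 0.21). Their adjusted p were 0.00168, 0.00584 and 0.00601, and 1 rose and 2 fell without high fat replicate 3 with inhibitors.

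Of the 22 mitochondrial iron and iron-sulfur genes 8 rose and 1 fell. The iron-sulfur protein CISD2 and the transporter ABCB8 rose by 0.75 (SE 0.12, adjusted p = 0.000271) and 0.66 (SE 0.11, adjusted p = 0.000289). In cytosolic iron-sulfur assembly 6 of 11 rose, among them CIAO1 (0.29, SE 0.08, adjusted p = 0.00999) and BOLA2 (0.56, SE 0.16, adjusted p = 0.0107), and MMS19 fell by 0.39 (SE 0.09, adjusted p = 0.00238). The count of higher genes was 2 without untreated high fat replicate 3 or high fat replicate 2 with inhibitors, and 3 without high fat replicate 3 or 4 with inhibitors.

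In the ferroptosis list, genes around iron-driven lipid peroxidation, 7 of 18 rose and 1 fell. GCLM, which supports glutathione synthesis, rose by 1.33 (SE 0.22, adjusted p = 0.00024). AIFM2 (FSP1), which regenerates ubiquinol, rose by 1.07 (SE 0.19, adjusted p = 0.000509), and KEAP1, which targets NRF2 for degradation, by 0.72 (SE 0.10, adjusted p = 0.00011). The naming rule (the 3 smallest p of each list) gave 22 called genes. Of these 20 kept the call whichever of the 16 libraries was left out, while ABCB10 and FECH of the heme synthesis list lost it in 4 and 7 cases. Without the 3 libraries above 30% ribosomal RNA ABCB10, FECH, SLC48A1, LRP1, MMS19, CIAO1 and BOLA2 were no longer called. Library size alone ended the calls of PCBP2, FBXL5, SLC48A1, LRP1 and MMS19, the ribosomal covariate those of ABCB10, FECH, SLC48A1 and CIAO1, and testing with no low-count filter that of FECH.

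On the ketogenic diet 0 of the 93 list genes were called for inhibitors by edgeR, beside 1.74% of all genes. Of the 93, 16 (17.2%) had an unadjusted p under 0.05 beside 18.7% of all genes. DESeq2 called 1 of the 93 beside 5.45% of all genes, and voom 6 beside 9.09%. For diet in untreated tumours 11 of 93 changed, 10 higher and 1 lower, or 11.8% beside 13.5% of all genes (7.99% higher). HSPB1, a small heat shock protein listed as a ferroptosis suppressor, rose by 0.99 (SE 0.14, adjusted p = 0.00171), from 124 to 247 CPM. ABCB8 rose by 0.56 (SE 0.11, adjusted p = 0.00588) and UROD by 0.53 (SE 0.12, adjusted p = 0.0103). These 3 kept the call whichever library was left out, while the other 8 lost it in 2 to 10 of 16 cases. The count was 3 without untreated ketogenic replicate 1 or 2, 6 or 7 without untreated high fat replicate 1, 2 or 3, high fat replicate 2 with inhibitors or untreated ketogenic replicate 3, and 17 or 24 without ketogenic replicate 1 or 4 with inhibitors. It was 0 without the 3 libraries above 30% ribosomal RNA, where 0 of all genes were called. Over all genes, leaving out single libraries gave 778 to 3200 calls, beside 2163 with all libraries.

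**Figure D5:**
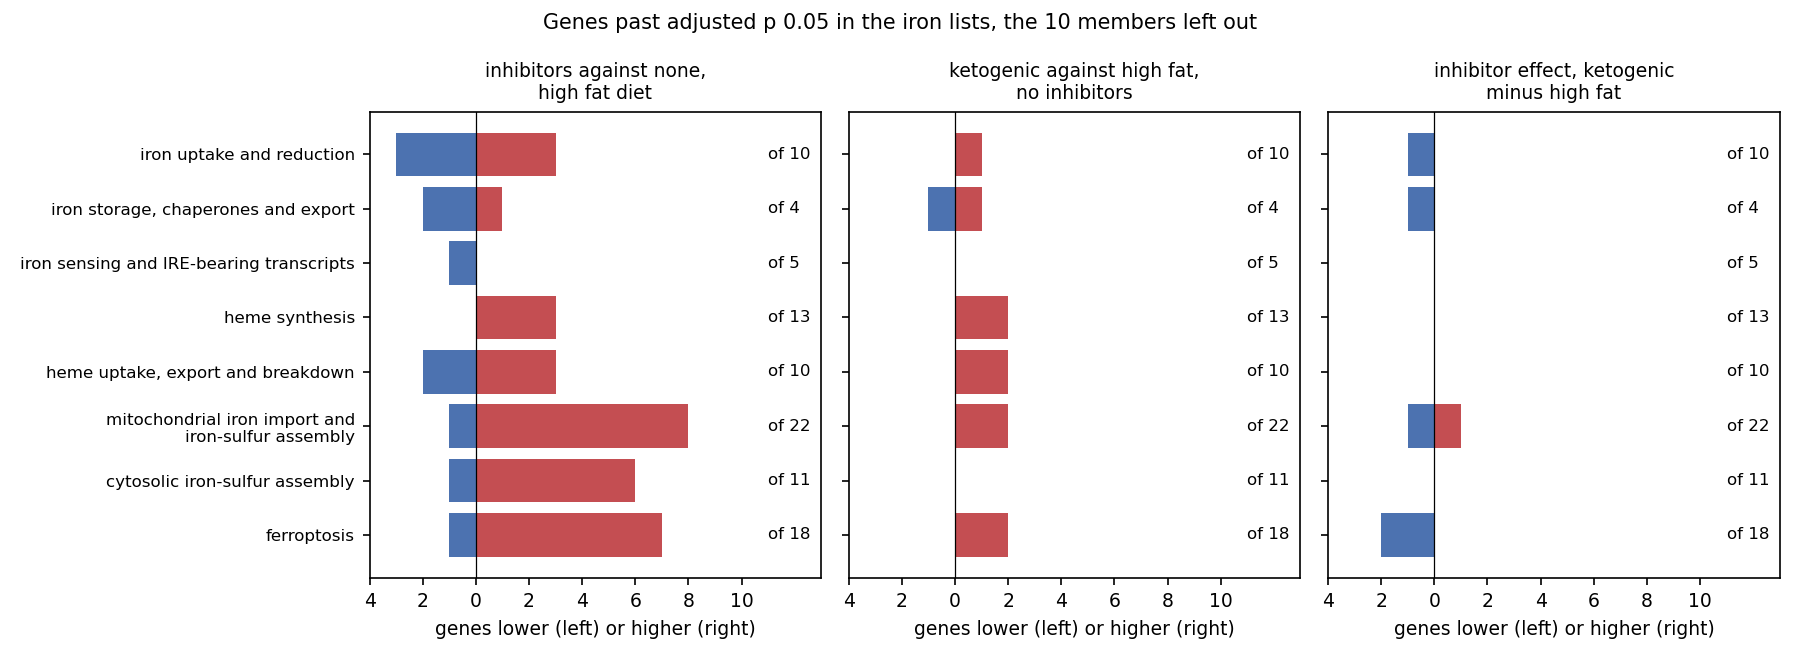
Genes of the 8 iron and heme lists past an adjusted p of 0.05, the 10 genes left out, as bars to the right (higher, red) and left (lower, blue) of 0, with the number tested at the right edge. On the high fat diet the mitochondrial list has 8 higher and 1 lower of 22, and the counts are smaller for diet and for the difference of the inhibitor effects.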

How the data were processed

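The deposited table holds RSEM estimated counts (expected counts) per gene symbol for 16 libraries. RSEM 1.2.15, Bowtie2 2.1.0 and the build hg38 are listed in the submitters' processing notes. The sources used here give no annotation, no strand setting and no step that removes mouse reads. Counts were rounded (13.0% were not whole), filtered by edgeR's filterByExpr, scaled with TMM and fitted with robust quasi-likelihood in edgeR 4.0.16 (R 4.3.3), all 16 libraries in 1 model of 4 group means. Tests were two-sided, with Benjamini-Hochberg adjustment over 16012 genes and a threshold of 0.05. DESeq2 1.42.0, limma 3.58.1 voom, other scalings and filters, a ribosomal RNA covariate, a replicate block and leaving out libraries were alternatives. Of each list, the 3 genes with the smallest p in a comparison were eligible to be named. The genes and lists were chosen with earlier results of these data known. Replicates differed by far more than sampling noise, at 35.3 or more in chi-square per gene. That value was taken against raw library totals with ribosomal RNA genes included, so it also holds differences in ribosomal share. The procedure was tested on simulated counts. Positions are GENCODE 29, 1-based. Some genes of the lists are counted in them but not reported here.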

Additional observations from a re-analysis of the deposited data

Results flagged for a closer look

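Among the 93 genes of the iron lists, 6 had an inhibitor effect that differed between the diets, by a test of the difference itself (ketogenic minus high fat, log2, edgeR's quasi-likelihood test with Benjamini-Hochberg adjustment), beside 9.02% of all genes, and 5 of them are given here. ABCB8, a mitochondrial transporter, differed by -0.70 (SE 0.16, adjusted p = 0.0187) and kept the call whichever of the 16 libraries was left out. HSPB1, the small heat shock protein, differed by -0.82 (SE 0.19, adjusted p = 0.0200) and lost the call only without untreated ketogenic replicate 2 (adjusted p = 0.0513).

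The other 3 lost the call when any of several single libraries was left out. KEAP1 differed by -0.53 (adjusted p = 0.0361) and SLC39A14 by -0.49 (adjusted p = 0.0409), each losing it in 11 of 16 cases. PCBP1 differed by -0.41 (adjusted p = 0.0497) and lost it in 12. The highest adjusted p in these cases were 0.0831 for KEAP1, 0.0962 for SLC39A14 and 0.115 for PCBP1, each without untreated ketogenic replicate 2. These 5 lost the call with library size alone, with the ribosomal covariate and without the 3 libraries above 30% ribosomal RNA. Calls over all genes fell too, from 1444 to 238 with library size alone and to 0 without those libraries, where no gene could keep a call. Leaving out single libraries gave 407 to 2636 calls over all genes. Over the 10 genes, no library of the 40 groups of 4 stood apart from its group by Dixon's test.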

How the results depend on the processing

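Depth limits SLC40A1. The share of ribosomal RNA moved with the groups and cannot be told apart from them, and its part in the counts of called genes was not tested. Leaving out the 3 libraries above 30% also makes 2 groups smaller. It takes replicates 2 and 3 from the untreated high fat group of 4 and replicate 2 from the untreated ketogenic group of 4. The TFRC difference of inhibitor effects (-3.04), on which TFRC was chosen, ran from -3.32 to -2.61 when single libraries were left out and was -2.99 with a replicate block, which is a description and no support. That block changed none of the calls among the 8 tested genes, but ended those of PROM2 for diet without inhibitors, SLC39A14 for diet with them, and SLC39A14 and PCBP1 for the difference of effects. The labels do not say whether the replicate numbers pair the samples. Same-numbered libraries correlated at -0.31 to 0.38 over 24 pairs, 7 of them over 0.1. Of 16 libraries 7 were most like their own number, and these values do not settle the question. The cause of the changes below was not tested. The set without the library least like its group (untreated high fat 4, high fat with inhibitors 1, untreated ketogenic 2, ketogenic with inhibitors 4) was chosen after seeing the data.

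Genes called, over all tested. For inhibitors on the high fat diet, 6771 became 3858 without libraries above 30% ribosomal RNA (5446 to 7624 with single libraries left out). For inhibitors on the ketogenic diet, 279 became 981 with library size alone, 873 with DESeq2, 1456 with voom, 56 with only the libraries compared, 0 with the ribosomal covariate and 53 without libraries above 30% (88 to 446). For diet without inhibitors, 2163 became 6393 with voom, 3346 with only the libraries compared and 0 without libraries above 30% (778 to 3200). For diet with inhibitors, 27 became 1 with library size alone, 345 with DESeq2, 1057 with voom, 0 with only the libraries compared, 0 with the covariate, 3 without libraries above 30% and 431 without the least like libraries (3 to 64). For the difference of effects, 1444 became 238, 2487 and 5208 with library size alone, DESeq2 and voom, 30 with the covariate, 0 without libraries above 30% and 2976 without the least like libraries (407 to 2636). With library size alone higher genes were 79.8, 93.4 and 91.4% of calls in the first 3 comparisons, against 48.7, 49.1 and 59.2%; for diet with inhibitors the 1 call was lower, against 29.6% higher among 27.

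Counts for inhibitors on the high fat diet are given over the 9 other genes. SLC40A1 is among them, although the filter kept it through its higher groups, so its calls are no test. These counts went from 1 to 3 with library size alone, 5 with voom and 3 with only the libraries compared. They were 3 without the least like libraries and 1 to 2 with single libraries left out. SLC40A1 was called with voom and in 1 of the 16 cases of leaving out a library. Of the 8 tested genes voom called 4, beside 62.1% of all genes. Over all 16012 genes the main fit called 6771 and library size alone 6087. On the ketogenic diet the count is over the 8 tested genes, without SLC40A1. It went from 0 to 1 with voom, beside 9.09% of all genes (0 with any library left out). For diet without inhibitors 1 became 0 with library size alone, 4 with voom and 0 without libraries above 30% (1 throughout). There DESeq2 called 19.7% of all genes and voom 39.9%. With inhibitors 0 became 1 with DESeq2, 2 with voom and 1 without the least like libraries (0 throughout), where DESeq2 called 2.15% of all genes and voom 6.6%. For the difference of effects 0 became 1 with DESeq2, voom, the stricter filter, ribosomal genes removed and the least like libraries left out (0 to 1). Here DESeq2 called 15.5% of all genes and voom 32.5%. Of the 93 list genes, those called for diet without inhibitors were 20 with DESeq2, 40 with voom, 24 with only the libraries compared and 6 with no filter. Those called for the difference of effects were 12 with DESeq2, 39 with voom and 24 without the least like libraries, and 1 to 16 with single libraries left out. The stricter filter gives no value for SLC40A1, and only the libraries compared none for the difference of effects.

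Some small differences that were not called changed sign. Library size alone turned FTL, SLC11A2, ACO1 and STEAP3 to 0.16, 0.22, 0.15 and 0.16 for inhibitors on the high fat diet, ACO1, NCOA4 and STEAP3 to 0.020, 0.21 and 0.19 on the ketogenic diet, FTL, SLC11A2 and NCOA4 to 0.092, 0.092 and 0.086 for diet without inhibitors, and IREB2 and ACO1 to 0.12 and 0.13 with them. With voom NCOA4 was -0.032 for inhibitors on the high fat diet, FTL and NCOA4 were -0.0089 and 0.028 on the ketogenic diet, FTH1, FTL, IREB2 and ACO1 were -0.045, -0.047, 0.13 and 0.091 for diet with inhibitors, and IREB2, ACO1 and NCOA4 were 0.069, 0.068 and 0.060 for the difference of effects. Without the least like libraries NCOA4 was -0.028 for inhibitors on the high fat diet, FTL and STEAP3 were -0.032 and 0.024 on the ketogenic diet, ACO1 was -0.0082 for diet without inhibitors, FTH1, FTL, IREB2 and ACO1 were -0.11, -0.046, 0.020 and 0.096 with them, and ACO1 and NCOA4 were 0.10 and 0.0072 for the difference of effects. The stricter filter gave NCOA4 -0.00388 for inhibitors on the high fat diet. Without libraries above 30% FTH1 was -0.061 for diet without inhibitors and 0.14 for the difference of effects. The covariate gave ACO1 0.070 for diet with inhibitors and STEAP3 -0.011 for the difference of effects, and the replicate block gave SLC40A1 -0.027 for diet with inhibitors.

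Leaving out single libraries also crossed 0. For inhibitors NCOA4 ran from -0.027 to 0.067 on the high fat diet, and FTL from -0.030 to 0.18, SLC11A2 from -0.032 to 0.14 and NCOA4 from -0.091 to 0.0058 on the ketogenic diet. For diet without inhibitors SLC40A1 ran from -1.08 to 0.012 and IREB2 from -0.012 to 0.10. For diet with them FTH1 ran from -0.099 to 0.17, SLC40A1 from -0.21 to 0.42, SLC11A2 from -0.040 to 0.13, IREB2 from -0.14 to 0.047 and ACO1 from -0.10 to 0.040. For the difference of effects FTH1 ran from -0.21 to 0.054, IREB2 from -0.18 to 0.015 and STEAP3 from -0.023 to 0.090.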

Other observations

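SLC39A14, a metal importer, was the only one of the 93 list genes called between the diets with inhibitors, beside 0.169% of all genes. It was 0.55 lower on the ketogenic diet (log2, SE 0.10, adjusted p = 0.0374 in edgeR), at a mean of 83.4 CPM against 122 CPM, and the 2 groups did not overlap. The call was lost in 11 of 16 cases of leaving out a library, with adjusted p up to 0.132. It was also lost with library size alone (adjusted p = 0.335), with only the libraries compared (0.145), with the ribosomal covariate (0.645), with a replicate block (0.0601) and without the 3 libraries above 30% ribosomal RNA (0.0871), and it was kept in DESeq2 and voom. Of all genes 27 were called in the main fit, 1 with library size alone and 3 to 64 with single libraries left out. DESeq2 called 2.15% of all genes and voom 6.6%.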
